A study of Mus musculus with 2 samples.

Results

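Neurog3-positive barcodes of mouse small intestinal organoids, which carry the markers of enteroendocrine progenitors, are described here. A barcode, which stands for 1 captured cell, was kept if it held at least 500 genes and 1000 unique molecular identifiers (UMIs, each counting 1 captured RNA molecule) and at most 20% mitochondrial UMIs. Members were chosen by their Neurog3 count alone, as kept barcodes with at least 2 Neurog3 UMIs, and 226 of 4066 kept barcodes met that rule. Organoids are epithelial structures grown in culture, without the immune, vascular and stromal cells of the gut wall. The labels list 1 control library and 1 melatonin-treated library, each pooled from 3 organoid lines on culture day 3, and the series' title names melatonin together with prostaglandin E2. They give no strain, age, genotype or dose, and name no agent shared by both groups. The matrices deposited for the 2 samples are identical, and each barcode ends in suffix 1 or 2 with no statement of which treatment a suffix marks. Barcodes that end in 1 are called set 1 below and those that end in 2 are called set 2, and melatonin is not compared with control. Cells of 1 matrix are not replicates, so no test was possible, and every interval below is a 95% interval that covers counting error only.

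Neurogenin 3, the product of Neurog3, is the basic helix-loop-helix transcription factor that commits a crypt secretory cell to the endocrine fate, and it is made only for a short time. It switches on further factors, among them Neurod1, Insm1 and Pax4, while Notch signalling through Hes1 in neighbouring cells holds it down. Cells that have passed through this state stop dividing, load granules with granins and come to make hormones such as serotonin, ghrelin, cholecystokinin or glucagon-like peptides.

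Members made up 142 of 2300 kept barcodes in set 1, or 6.17% (exact binomial interval 5.22 to 7.24%), and 84 of 1766 in set 2, or 4.76% (3.81 to 5.86%). The intervals of the sets overlapped, and the shares moved with the mitochondrial limit, to 8.06% and 6.01% at a limit of 10% and 1.91% and 1.69% with none. Their Neurog3 content, which the rule used, had a median of 9 UMIs and a maximum of 52 in set 1, and a median of 12.5 and a maximum of 90 in set 2. Per 10000 UMIs of a barcode this was a median of 7.09 (range 0.482 to 36.2) in set 1 and 7.81 (0.510 to 63.8) in set 2. Of all kept barcodes, 3792 had no Neurog3 UMI, 48 had 1 and 22 had 2. Members were shallower than the other kept barcodes, with a median of 14270 against 30951.5 UMIs in set 1 and 13402 against 29629.5 in set 2. Their median mitochondrial share was 7.72% and 7.12%. Of 226 members, 4 were among the 204 kept barcodes with the highest 5% of doublet scores. The barcode sequence of 1 member occurred with both suffixes, and 0 sequences were members in both.

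Summed levels of endocrine genes differed stepwise at the edge of the rule. Barcodes with 1, with 2 and with 3 or more Neurog3 UMIs held Insm1 at 131, 534 and 939 CPM (the UMIs of a gene summed over the barcodes of a group, per 1000000 UMIs of that group), and Sox4 at 243, 476 and 1018 CPM. Chgb stood at 12564, 25759 and 36191 CPM in the same order. Of the 12 genes compared at this edge, the enterocyte gene Fabp1 differed most between the 48 barcodes just outside the rule and the 22 just inside, at 3459.9 against 61.1 CPM.

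The label was next described by marker genes that the rule did not use. They were chosen with earlier results of these data known, so they are no independent check. Granins, the acidic proteins that pack hormone granules, were counted as Chga plus Chgb, and a barcode with at least 5 such UMIs per 10000 was called granin-positive. By that measure 124 of 142 members of set 1 (87.3%, interval 80.7 to 92.3%) and 79 of 84 of set 2 (94.0%, 86.7 to 98.0%) were granin-positive, against 15.3% and 15.6% of the other kept barcodes. Insm1, a zinc-finger repressor of endocrine progenitors, was detected in 97.9% of members of set 1 and 98.8% of set 2. With each barcode thinned to 2000 UMIs, the expected share was 77.9% and 80.2%. As a background, the 100 barcodes per set richest in enterocyte genes (median 34635.5 and 34119 UMIs) had Insm1 in 4 and 2 barcodes, and in 0.182% and 0.121% when thinned. Runx1t1, a transcriptional co-repressor, was detected in 88.0% and 92.9% of members, with an expected share of 47.2% and 53.5% at 2000 UMIs, and the background barcodes held 0 UMIs of it.

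Most markers of cells from outside the epithelium were at or near 0 in members. Ptprc and Lyz2 of immune cells and Col1a1, Col3a1, Dcn and Cdh5 of stroma and vessels each had 0 UMIs in both sets. The summed list of 6 immune genes came to 3.86 and 0.802 CPM. The summed list of 6 stromal and endothelial genes came to 19.3 and 15.2 CPM, all of it Pecam1, an endothelial adhesion gene that was called higher than in other kept barcodes (4.33 and 2.93 CPM). Of 8 tuft cell genes, 7 had no UMI in a member and Avil was at 0.857 and 1.60 CPM.

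**Figure D1:**
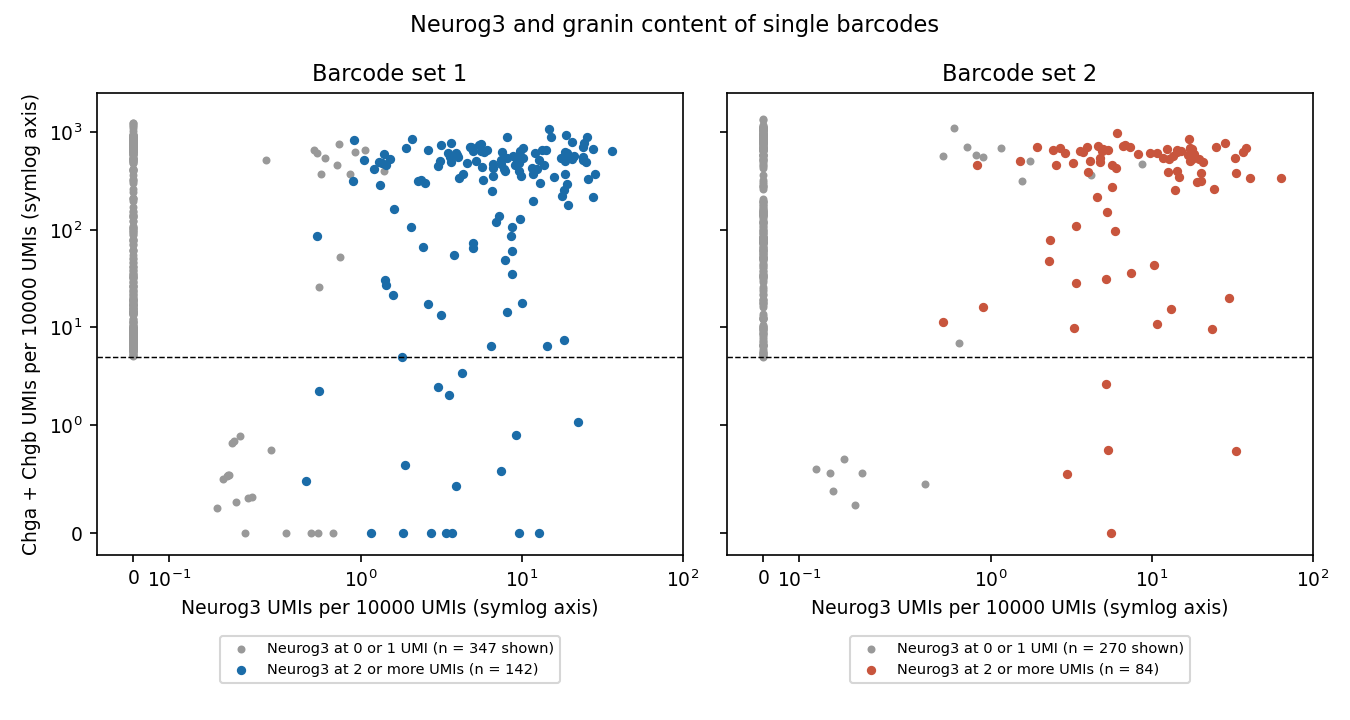
Each point is 1 barcode, with its Neurog3 UMIs per 10000 on the x axis and its Chga plus Chgb UMIs per 10000 on the y axis, both near-logarithmic with a linear part around 0. Coloured points are the 142 and 84 members, grey points are non-members that were granin-positive or had 1 Neurog3 UMI, and the dashed line is the limit of 5 for a granin-positive barcode, which 124 and 79 members reached.

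The early endocrine programme was high in members across nearly its whole list. Pax4, a homeobox factor of endocrine subtypes, stood at 81.4 CPM in members and 1.08 CPM in other kept barcodes of set 1, and at 103 against 0.983 CPM in set 2. Insm1 was at 886 against 21.8 CPM and 916 against 28.2 CPM. Neurod1, a direct target of neurogenin 3 that carries the endocrine programme on, was at 441 against 19.2 CPM and 501 against 33.3 CPM. Sox4, an HMG-box factor of secretory progenitors, was also present in other cells and was at 1027 against 239 CPM and 839 against 207 CPM. A gene was called higher or lower where its CPM differed at least 2-fold and the exact Poisson intervals of the groups did not overlap, among genes with at least 10 UMIs. Of the 15 early endocrine genes other than Neurog3, 14 of 15 tested were higher in set 1 and 14 of 14 in set 2, where 23.4% and 23.3% of all tested genes were called higher. The median log2 ratio, on CPM plus 1, was 4.18 and 3.97 for these genes against 0.33 and 0.32 for all genes. The exception was Gfi1, a zinc-finger factor of secretory cells, at 0.429 CPM in set 1 and 0 in set 2, where 3 UMIs is the limit that a count of 0 allows.

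Factors that act later in endocrine differentiation were also high, though unevenly. Of 16 such genes, 14 of 14 tested were higher than in other kept barcodes in set 1 and 11 of 13 in set 2, with median log2 ratios of 3.46 and 3.19, beside 23.4% and 23.3% of all genes called higher. Neurod2, a neuronal relative of Neurod1, gave the highest ratio after Neurog3 itself, at 160.3 against 1.60 CPM in set 1 and 164 against 1.46 CPM in set 2. Fev, a factor of serotonin-producing cells, was at 233 against 10.8 CPM and 282 against 16.1 CPM. Nkx2-2, from the early list, was at 247 against 12.7 CPM and 341 against 18.6 CPM. Isl1, a homeobox factor of peptide-hormone cells, was sparse, with an expected share at 2000 UMIs of 8.18% and 10.6% of members. It was detected in 17 members of set 1 and 13 of set 2, at 85.3 and 116 CPM, and 3 barcodes held 40.7% and 57.9% of its UMIs. Insm2 and Nkx6-2 had no UMI in a member.

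Among the 12 genes with the highest ratios in both sets were a receptor, cytoskeletal genes and enzymes. Gfra3, the receptor subunit for artemin, was at 359.5 CPM in members against 8.30 CPM in other barcodes of set 1 and at 483 against 8.28 CPM in set 2. Tubb3, a neuronal beta-tubulin that also stood on the early list, was at 119.6 against 2.55 CPM and 125 against 2.85 CPM. Epb42, a red cell membrane skeleton protein, was at 113 and 61.8 CPM in members, with log2 ratios of 5.51 and 5.20. The collagen-modifying enzyme Plod2, the cyclic nucleotide phosphodiesterase Pde1c, the guanine nucleotide exchange factor Fgd2 and the nucleosome-binding protein Hmgn3 were also among the 12, with log2 ratios from 4.75 to 5.10.

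Most genes of absorptive cells were lower. Of 12 enterocyte genes, 9 were lower and 1 was higher in set 1, and 10 were lower in set 2, where 6.35% and 7.63% of all tested genes were called lower. Fabp1, which carries fatty acids, was at 62.6 against 1539 CPM in set 1 and 68.2 against 2660.1 CPM in set 2. Sis, the brush-border enzyme sucrase-isomaltase, was the higher one, at 582 CPM in members against 281 CPM in other barcodes of set 1 and 294 against 290.1 CPM in set 2. Apob was not called in either set, and Anpep was not called in set 1. Among the 12 genes with the lowest ratios in both sets were the enterocyte genes Fabp1, S100g, Leap2, Cyp2c29, Cyp3a11, Cyp2b10, Gsta1 and Gstm3. The predicted genes Gm3776 and Gm5485 and the hormone gene Gcg were also among them.

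Hormone granule genes were abundant in members. Chgb stood at 33229 CPM in set 1 and 38589 CPM in set 2, against 1768 and 2462 CPM in other kept barcodes and 40.1 and 37.0 CPM in the enterocyte-rich background. Chga was at 911 and 1719 CPM against 359 and 563 CPM. Pcsk1, the convertase that cuts prohormones, was at 323 against 28.5 CPM and 380.2 against 42.5 CPM, and Cpe, which trims the cut peptides, was at 619 against 71.5 CPM and 810.2 against 149 CPM. Of 12 granin and processing genes, 11 were higher and 1 lower in set 1, and 10 were higher in set 2. The lower one was the granin Scg2, at 8.57 against 25.8 CPM. Of 12 genes for granule release, such as Snap25, Rab3c and Cacna1a, 12 were higher in set 1 and 11 in set 2. Of all genes, 23.4% and 23.3% were called higher and 6.35% and 7.63% lower.

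Among hormone genes, members favoured the serotonin and tachykinin pair. Tph1, the enzyme that starts serotonin synthesis in the gut, reached 5 UMIs per 10000 in 79 of 142 members of set 1 (55.6%) and in 59 of 84 of set 2 (70.2%). Tac1, the precursor of substance P, reached it in 93 members (65.5%) and 58 members (69.0%). None of the 100 enterocyte-rich background barcodes of either set reached it for Tph1 or Tac1, which allows a share of up to 3.62% in each set. Tph1 CPM was 948 in members against 34.8 in other barcodes of set 1 and 1416 against 67.2 in set 2. Further serotonin genes were present, with the decarboxylase Ddc at 283 and 333 CPM and the vesicle transporter Slc18a1 at 167 and 223 CPM. Slc18a2, the other vesicle transporter, was at 3.00 and 12.8 CPM.

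Other hormones were carried by fewer members than Tph1 or Tac1. Ghrl, the precursor of ghrelin, reached 5 UMIs per 10000 in 9 members of set 1 and 5 members of set 2, and the 3 richest barcodes held 97.4% and 97.2% of its UMIs. Its level of 2996 and 5042 CPM is therefore that of a handful of cells. Cck reached the limit in 39 members of set 1 (27.5%) and 14 of set 2 (16.7%), and Sct, the precursor of secretin, in 20 (14.1%) and 2 (2.38%). In set 1, Cck lay within 2-fold of the limit in 35 members and Sct in 44, so these counts turn on the limit. Gcg reached it in 0 members of set 1 and 1 of set 2, Gip in 2 and 1, and Pyy in 0 and 1. Sst and Nts reached it in 0 members of either set. Serotonin or tachykinin content without ghrelin or another peptide was the most common pattern, in 58 members of set 1 (40.8%) and 52 of set 2 (61.9%). In 35 and 8 further members it occurred with another peptide, and 25 and 14 members reached the limit for none of these genes. Among granin-positive non-members, serotonin or tachykinin content without ghrelin or another peptide was also the most common pattern, at 31.2% and 34.2%.

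**Figure D2:**
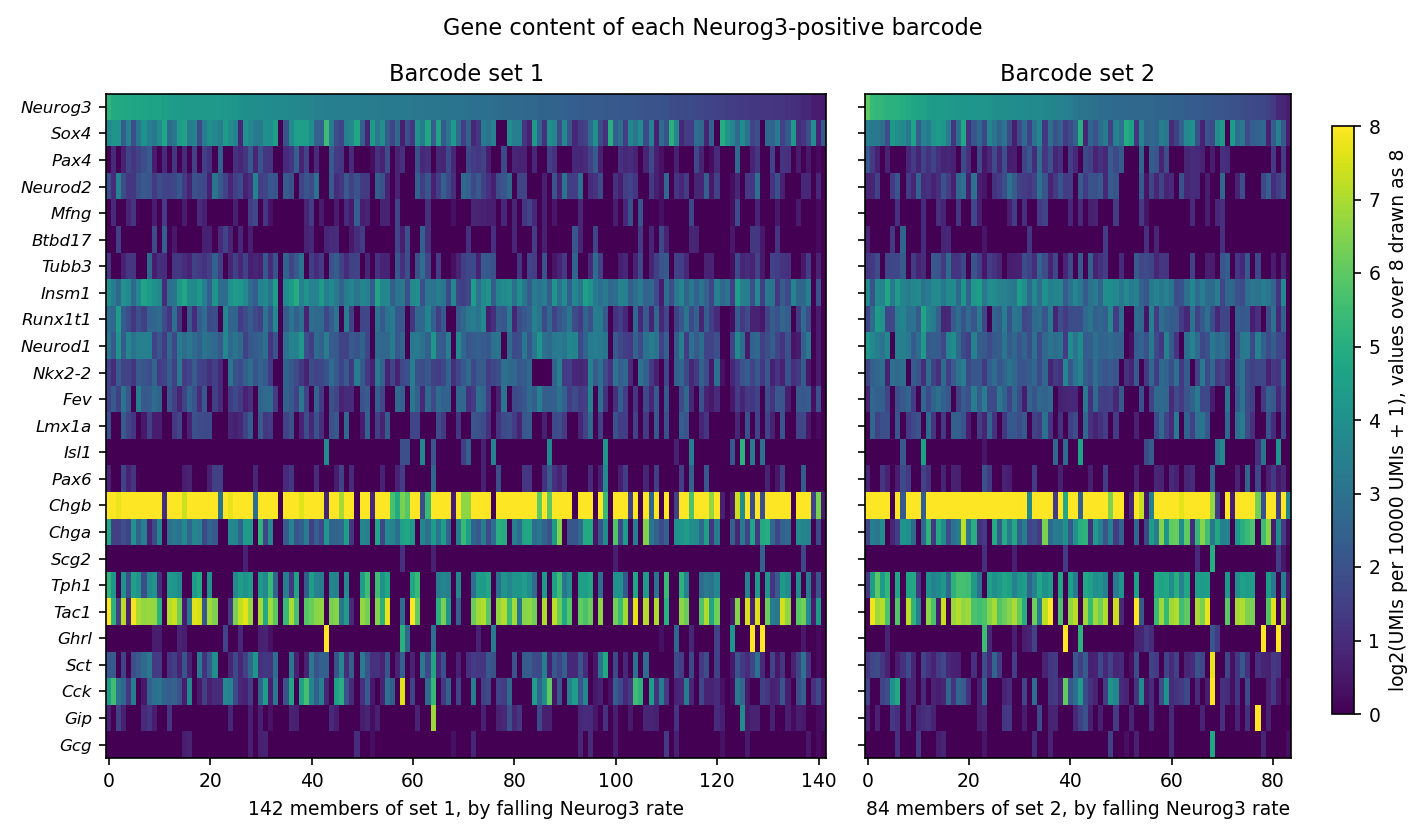
Each column is 1 of the 142 members of set 1 (left) or 84 members of set 2 (right), ordered by falling Neurog3 rate, and each row is a gene. Colour is log2 of UMIs per 10000 UMIs plus 1, with values over 8 drawn as 8. Chgb, Tph1 and Tac1 fill most columns, while Ghrl is bright in a few scattered columns, the brightest of which lies near the low end of Neurog3 in each set.

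The members were next set against granin-positive barcodes with at most 1 Neurog3 UMI, 330 in set 1 and 263 in set 2. In set 1, 135 of these had fewer than 2000 UMIs, against 30 in set 2, so the same comparison was also made among granin-positive barcodes of at least 5000 UMIs (118 members and 175 non-members in set 1, 79 and 214 in set 2). The early endocrine list remained high on this stricter background. Of its 14 tested genes other than Neurog3, 9 were higher in members of set 1 and 10 in members of set 2, where 2.74% and 3.29% of all genes were called higher. With the depth limit the counts were 8 and 9, beside 2.86% and 3.63% of all genes. The medians of these genes were 1.36 and 1.63 on the log2 scale, against 0.09 and 0.16 for all genes. With the depth limit they were 1.24 and 1.51, against 0.15 and 0.19 for all genes.

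Some endocrine factors parted the groups and others did not. Sox4 was at 1027 CPM in members against 205 CPM in granin-positive non-members of set 1, and at 839 against 174 CPM in set 2. Pax4 was at 81.4 against 18.5 CPM and 103 against 11.6 CPM, and Neurod2 was at 160.3 against 27.3 CPM and 164 against 16.8 CPM. Mfng, a fringe glycosyltransferase that modifies Notch receptors, was at 34.7 against 8.47 CPM and 28.1 against 3.01 CPM. Cbfa2t3, a co-repressor of the same family as Runx1t1, was at 110.1 against 23.8 CPM and 111 against 23.1 CPM. Insm1 differed less, at 886 against 372 CPM and 916 against 343 CPM. Neurod1 was at 441 against 343 CPM and 501 against 411 CPM, Nkx2-2 at 247 against 226 CPM and 341 against 229 CPM, and neither was called.

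Most hormone genes were lower in members than in all granin-positive non-members together. Summed over the hormone list, however, members were at 9552 and 14371 CPM, the non-members with Tph1 at 2 or more UMIs at 8035 and 23243 CPM, and the other non-members at 134436 and 175989 CPM. Gcg, the precursor of glucagon-like peptides, was at 8.14 CPM in members and 4317 CPM in granin-positive non-members of set 1, and at 49.7 and 10331 CPM in set 2. Cck was at 637 and 41310.3 CPM in set 1 and 1791 and 70008 CPM in set 2. Gip was at 105 and 14801 CPM and at 355 and 13090.1 CPM. Of the hormone list, 7 of 11 tested genes were lower in members of set 1 and 11 of 14 in set 2, where 3.45% and 2.53% of all genes were called lower, and the depth limit left those counts at 7 and 11, beside 2.79% and 2.45% of all genes. Tac1 was the 1 hormone gene called higher, in set 2 alone. Enterocyte genes were lower as well on this background, 9 of 12 tested in set 1 and 5 of 11 in set 2, beside the same shares of all genes. The depth limit left these counts at 9 and 5. Rbp4, a retinol carrier, the secreted protein Lect2 and the lectin Reg4 were also among the 8 genes with the lowest ratios in both sets. Of the granin genes, Chga was at 911 against 6578 CPM in set 1 and 1719 against 6978 CPM in set 2, while Chgb was at 33229 against 32084 CPM and 38589 against 30392 CPM and was not called. Pax6, a homeobox factor of mature endocrine cells, was at 45.9 against 118 CPM and 50.5 against 146 CPM. Etv1, an ETS factor, was at 23.1 against 131 CPM and 24.1 against 198 CPM.

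The non-members were of more than 1 kind. With Tph1 at 2 or more UMIs there were 109 in set 1 and 112 in set 2, with Chga at 12111 and 14099.6 CPM and Tac1 at 6634 and 6719.7 CPM. Granin-positive members had Tac1 at 7230.5 and 7631 CPM. For Sox4 the granin-positive members, at 777 and 672 CPM, stood above the Tph1-positive non-members, at 241 and 229 CPM. Ly6a, a surface protein used as a mark of regenerating epithelium, was at 119.6 CPM in members and 129.7 CPM in Tph1-positive non-members of set 1, and at 52.9 and 43.8 CPM in set 2. In the Tph1-negative granin-positive non-members Ly6a was at 1.31 and 2.85 CPM, and the 23 members below the granin limit held 0 UMIs of it.

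**Figure D3:**
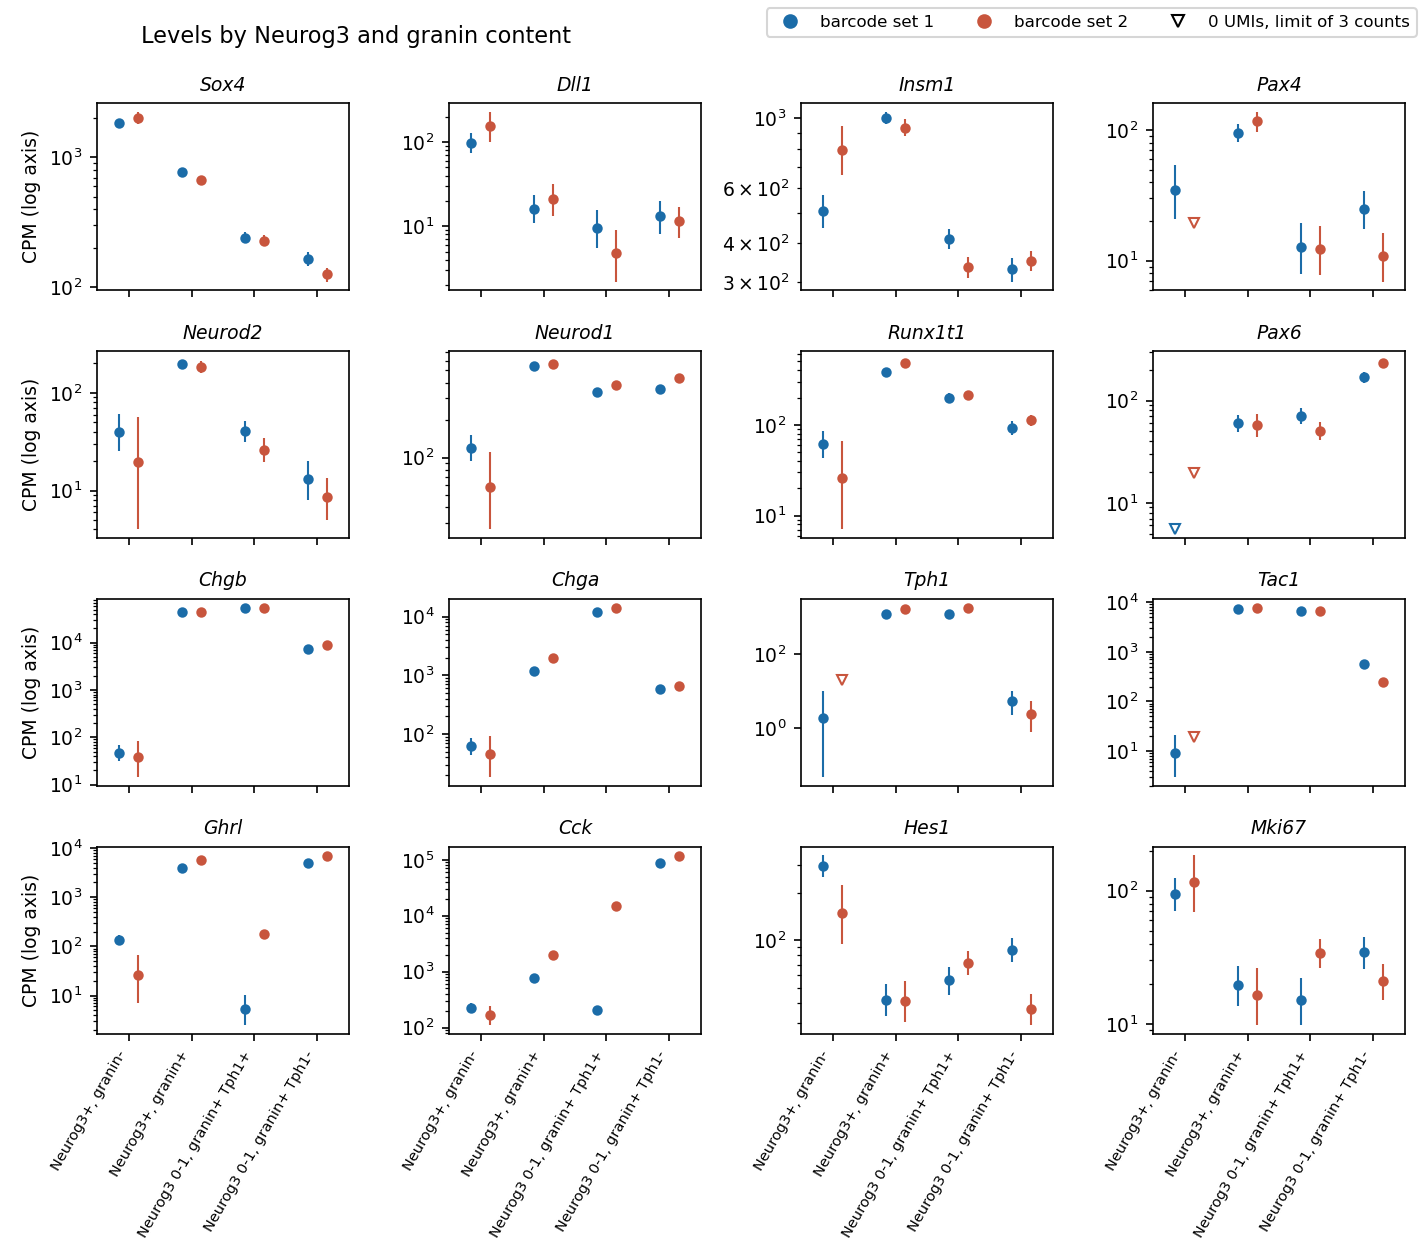
CPM of 16 genes (log axis) in 4 groups of barcodes per set, with exact Poisson 95% intervals and open triangles for a count of 0 drawn at the limit of 3 counts. Groups are members below the granin limit, granin-positive members, and granin-positive barcodes with 0 or 1 Neurog3 UMI with Tph1 at 2 or more UMIs or below that. Sox4 is lower with each group from left to right in both sets, Chga is highest in the Tph1-positive non-members, and Cck is highest in the Tph1-negative ones.

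A small class of members lay below the granin limit of 5 UMIs per 10000 and is called granin-negative. It held 23 barcodes, 11 of them with at least 1 Chgb UMI, 18 in set 1 and 5 in set 2, with a median of 35104 UMIs against 13699 in the 203 granin-positive members. Dividing content was described by 14 genes of G2 and mitosis, such as Mki67 and Top2a, and a barcode with at least 10 such UMIs per 10000 was called dividing, a limit set after the values were seen. Of the 23 granin-negative members 17 were dividing (73.9%, exact interval 51.6 to 89.8%), against 3 of the 203 granin-positive members (1.48%, 0.306 to 4.26%) and 58.8% of the other kept barcodes. By set, the granin-negative share was 72.2% against 69.4% of the other kept barcodes in set 1. In set 2 it was 80.0% of 5 barcodes against 45.2%. In the 23, 5 barcodes lay between 5 and 20 UMIs per 10000. Thinned to 2000 UMIs, 62.8% of the granin-negative members of set 1 and 77.5% of set 2 were expected to hold at least 2 such UMIs, against 5.49% and 3.30% of granin-positive members. Unthinned these shares were 94.4% and 80.0% against 58.9% and 40.5%. In the enterocyte-rich background the thinned shares were 12.7% and 1.55%.

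The 17 dividing, granin-negative members were compared with the granin-positive members. Sox4 was at 1915 CPM against 737 CPM in granin-positive members, and Dll1, a Notch ligand of secretory precursors, was at 125 against 18.1 CPM and was seen in 15 of the 17. Hes1, the repressor that Notch switches on, was at 296 against 41.7 CPM, with 60.1% of its UMIs in 3 barcodes, beside 324 and 343 CPM in the other kept barcodes of the sets. Insm1 was at 556 against 977 CPM and was seen in 14 of the 17. Neurod1 was seen in 6 of them, at 80.9 against 548 CPM, and Runx1t1 in 4, at 42.1 against 419 CPM. The barcode closest to the limit, at 10.1 mitotic UMIs per 10000, held 23 of the 50 Neurod1 UMIs and 21 of the 26 Runx1t1 UMIs, and without it Neurod1 stood at 45.3 CPM and Runx1t1 was seen in 3 of 16 barcodes with 5 UMIs in all. Fev was at 4.85 against 309 CPM. Lgr5 and Mex3a, genes of crypt base stem cells, were at 69.5 against 16.3 CPM and 63.1 against 9.73 CPM. Atoh1, the factor that opens the secretory fate, had 1 UMI in the 17 barcodes and 2 UMIs in the 203.

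Over all members, 4 of 5 tested goblet genes and 5 of 6 Paneth genes were higher than in other kept barcodes in set 1, while in set 2 of 7 goblet genes 1 was higher and 2 lower and of 6 Paneth genes 3 were higher and 1 lower, beside 23.4% and 23.3% of all genes higher and 6.35% and 7.63% lower. Both kinds of granin-negative member held such genes. Tff3 and Fcgbp, genes of goblet cells, were at 3129.7 and 657 CPM in the 17 dividing members against 969 and 173 CPM in granin-positive members. Muc2, the main goblet mucin, was at 14.6 CPM and all of it came from 1 barcode. The Paneth cell genes Lyz1 and Itln1 were at 555 and 1491 CPM against 277 and 173 CPM, while the Paneth defensin Defa24 was lower, at 45.3 against 763 CPM. For Itln1 3 barcodes held 72.8% of the UMIs and for Spink4 81.3%, so these levels were not shared evenly. The 4 members with a high doublet score were kept, and the part of mixed droplets in these levels was not tested. The 6 granin-negative members that were not dividing also held genes of this content, with Sox4 at 1612, Tff3 at 2217, Fcgbp at 925, Itln1 at 1482, Lyz1 at 2442, Spink4 at 3651, Mex3a at 94.8 and Defa24 at 2134 CPM. Many of these levels came from few barcodes. Itln1 and Spink4 were seen in 4 of the 6, with 98.4% and 99.7% of the UMIs in 3, and Defa24 in 2. For Fcgbp and Tff3 3 barcodes held 97.4% and 91.4% of the UMIs, and Mex3a had 8 UMIs in all. The 6 stood apart from the 17 with Dll1 at 11.9 CPM and 1 UMI and Hes1 at 23.7 CPM and 2 UMIs. They also had Mfng at 202 CPM, with 82.4% of its 17 UMIs in 3 barcodes, and Gadd45a at 1067 CPM.

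Cell cycle genes as a whole were low in members. All 14 G2 and mitosis genes were lower than in other kept barcodes in both sets, with median log2 ratios of -1.89 and -1.80, and 10 of 14 S-phase genes were lower in set 1 and 12 of 14 in set 2, where 6.35% and 7.63% of all genes were lower. Mki67 was at 37.3 against 139.6 CPM in set 1 and 28.9 against 116 CPM in set 2. Of 6 cell cycle inhibitors, 4 were higher in set 1 and 3 in set 2, beside 23.4% and 23.3% of all genes, with Cdkn1a at 392 against 89.4 CPM and 438 against 129 CPM and Cdkn1c at 135 against 10.1 CPM and 124 against 16.7 CPM. Against granin-positive non-members the sign of the mitotic list depended on the barcodes and the weighting used. Its median was 0.76 and 0.69 with all members and 0.27 and -0.66 among granin-positive barcodes of at least 5000 UMIs. With that depth limit 0 of 14 genes were called in set 1 and 3 were lower in set 2, beside 2.79% and 2.45% of all genes called lower.

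The Notch ligands Dll1 and Dll4 were higher in members than in other kept barcodes, and the Notch target Hes1 was lower. Dll1 was at 35.6 against 9.58 CPM in set 1 and 37.7 against 8.06 CPM in set 2, and Dll4 was at 45.0 against 3.98 CPM and 73.8 against 4.45 CPM. The ligands were divided between the member classes, since Dll4 was at 66.4 CPM in granin-positive members and 4.85 CPM in the dividing granin-negative ones, the reverse of Dll1. Of 5 ligands, 4 were higher in set 1 and 3 in set 2, beside 23.4% and 23.3% of all genes. Mfng and Lfng were higher in both sets, with Lfng at 11.1 against 2.39 CPM and 8.02 against 1.70 CPM. Hes1 was at 102 against 324 CPM and 54.5 against 343 CPM, and the receptor Notch1 was at 9.43 against 15.6 CPM and 4.01 against 13.1 CPM. Hey1, another Notch target, was higher, at 4.29 against 0.354 CPM and 7.22 against 0.201 CPM, with 10 UMIs in members of set 1 and 9 in set 2.

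Granin-positive members were divided within each set into a low, a middle and a high group by Neurog3 per 10000 (42, 41 and 41 barcodes in set 1, 27, 26 and 26 in set 2). Median depth differed little across them, between 13510 and 14263 UMIs in set 1 and between 12977 and 13513.5 in set 2. From the low to the high group Sox4 went from 440.3 to 1189.8 CPM in set 1 and from 529 to 945 CPM in set 2, a difference called in set 1 alone. Fjx1, a secreted protein listed among YAP targets, went from 16.1 to 96.6 CPM and from 18.2 to 82.8 CPM, and Cbfa2t3 from 73.1 to 163 CPM and from 67.7 to 151 CPM. Of the 14 tested early genes other than Neurog3, 2 were higher in the high group of set 1, Sox4 and Rcor2, beside 0.636% of all genes. In set 2 they were 2 other genes, Runx1t1 and Tubb3, beside 0.988% of all genes, and the inhibitor Cdkn1a was lower.

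Some genes of peptide-hormone cells were lower at high Neurog3. Of the hormone list, 3 of 8 tested genes were lower in set 1 and 5 of 7 in set 2, and in set 1 Cck, Sct, Gcg and Gip were not called, with log2 ratios of 0.58, 0.58, -0.58 and -0.93. Ghrl went from 9323 to 15.3 CPM in set 1 and from 14412 to 339.8 CPM in set 2, and Isl1 from 171 CPM to 0 UMIs and from 190.1 to 71.4 CPM. Scg2 went from 23.4 to 1.69 CPM and from 156 to 8.57 CPM. Most of these UMIs came from few cells, as Ghrl was seen in 7 barcodes of the low group of set 1 and 5 of set 2, and Isl1 in 7 and 6. Of all genes 1.26% and 1.49% were called lower in the high group. Genes of other lists were called too. Of tested G2 and mitosis genes 4 of 12 were lower in set 1 and 1 of 5 in set 2, with Top2a in both. Of tested Paneth genes 3 of 5 were lower in set 1, while 2 of 4 were higher in set 2, where 0.988% of all genes were higher. Hes1 went from 74.6 to 23.7 CPM and from 80.7 to 17.1 CPM. Chgb, at 37075 to 52911 CPM and 36207 to 50395 CPM, and Tph1, at 1072 to 1329 CPM and 1237 to 2142 CPM, were not called in either set.

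**Figure D4:**
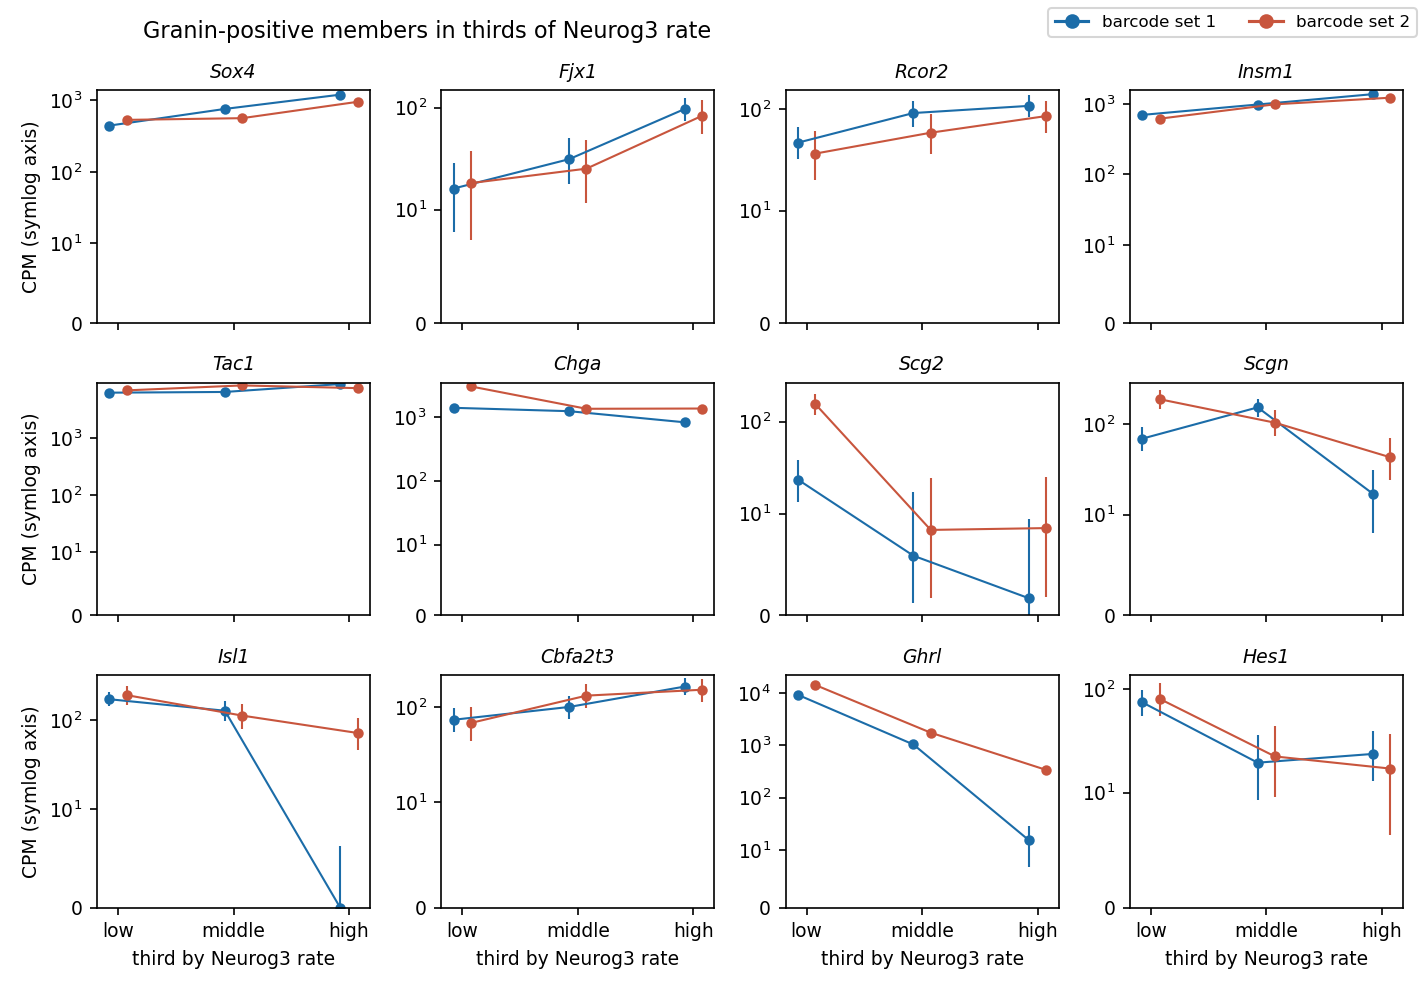
CPM of 12 genes in the low, middle and high groups of granin-positive members by Neurog3 rate, with exact Poisson 95% intervals, on an axis that is linear below 10 and logarithmic above. Blue is set 1 and red is set 2. Fjx1 and Cbfa2t3 are called higher in the high group of both sets and Sox4 and Rcor2 in set 1 alone, and Scg2, Isl1, Ghrl and Hes1 are lower.

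Members of the 2 sets resembled each other in most genes. Of 11187 genes tested, 67 were higher in members of set 2 (0.599%) and 117 were lower (1.05%). The early endocrine list held 0 higher and 1 lower gene, Btbd17, at 16.0 CPM in set 2 against 37.3 CPM in set 1. Igfbp2, which binds insulin-like growth factors, was at 8.82 CPM in set 2 against 144 CPM in set 1, where it was seen in 34 members and 3 of them held 41.2% of its UMIs. Klk1, Cela1, Lyz1, Fabp2 and Nupr1 were also lower in set 2, with log2 ratios from -1.93 to -1.47. The highest in set 2 were Reg4, at 391 against 23.1 CPM, with Scg2, Gip, Hist1h1c, Cck and Areg. The 3 richest barcodes of set 2 held 68.4%, 92.4%, 91.2%, 89.4% and 61.7% of the UMIs of Reg4, Scg2, Gip, Cck and Areg. The differences in these genes therefore rest on very few cells. Sct reached 5 UMIs per 10000 in 2.38% of set 2 members (interval 0.290 to 8.34%) against 14.1% of set 1 members (8.82 to 20.9%). Of the members, 9 in set 2 and 44 in set 1 lay within 2-fold of that limit. In granin-positive non-members the order was the other way, at 32.7% in set 2 and 14.2% in set 1.

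Listed genes of YAP, regeneration, prostaglandin E2 and melatonin were mixed in members. Of 22 listed YAP targets, 10 of 18 tested were higher and 2 lower than in other kept barcodes in set 1, and 7 of 20 were higher and 3 lower in set 2, where 23.4% and 23.3% of all genes were higher and 6.35% and 7.63% lower. Gadd45a, a stress-response gene, was at 316 against 45.1 CPM and 287 against 49.6 CPM, and Fjx1 at 36.0 against 0.877 CPM and 36.1 against 0.922 CPM. The classical target Cyr61 was lower, at 6.43 against 14.2 CPM and 17.6 against 37.3 CPM, and Ctgf and Ankrd1 had no UMI in a member. Of 10 regenerative genes, Ly6a was the 1 called higher in either set, at 119.6 against 6.14 CPM and 52.9 against 10.8 CPM, and 3 were lower in set 1 and 6 in set 2. Anxa1, a regenerative marker, had no UMI in a member against 3.42 and 14.4 CPM in other barcodes. The melatonin receptor Mtnr1a was at 0.857 and 0.802 CPM, the receptor Mtnr1b and the prostaglandin E2 receptors Ptger1 and Ptger2 had no UMI, and Ptger4 was at 2.14 and 8.02 CPM. Ptger3 was at 17.6 CPM in members of set 1 and 0.802 CPM in set 2, and Slco2a1, a prostaglandin transporter, was at 29.6 against 5.72 CPM and 37.7 against 8.42 CPM in other barcodes.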

How the data were processed

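Single-cell 3′ RNA libraries of mouse small intestinal organoids were analysed from the matrix deposited by the authors, which holds raw counts of UMIs per gene and barcode with no normalization. Cell Ranger 3.1.0, STAR 2.7.3a and bcl2fastq 2.20.0 are named per the submitters' processing notes, and the genome build is not given in the sources used here. The reference table held 30934 of the 31053 gene identifiers. The 3 files of each of the 2 samples were identical, so the 21806 barcodes were handled as 1 matrix with 2 suffixes. No group comparison or test was made. The members, gene lists and comparisons were chosen with earlier results of these data known.

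UMIs were summed over the barcodes of a group and given as CPM with exact Poisson intervals, and shares of barcodes with exact Clopper-Pearson intervals (95%). Expected shares at 2000 UMIs left out shallower barcodes, 1 of them a member. Log2 ratios used CPM plus 1. A count of 0 allows up to 3 counts, or, for a share of barcodes, its upper interval bound. Doublets were scored against simulated doublets and none was removed, and an alternative left out the highest 5%. Genes outside the lists were named by rank: the 12 highest and 12 lowest ratios against other kept barcodes, 8 and 8 against granin-positive non-members and 6 and 6 between sets, at 50 CPM or more. Rankings over both sets used the ratio of the set that lay nearer to no difference. The genes named by Neurog3 group and by granin class, and the dividing limit, were singled out after their values were seen. Simulated data were drawn from the Poisson model that the intervals assume, with 200 well-counted genes changed 4-fold in each set. Of these, 96.5% and 97.0% were recovered for members against other barcodes of set 1 and set 2. Unevenness among barcodes was not simulated, so calls of genes held by few barcodes are not covered. Python 3.11.15, numpy 2.4.6, scipy 1.17.1 and pandas 2.3.3 were used. Results that need 2 further genes are not reported here.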

Additional observations from a re-analysis of the deposited data

Results flagged for a closer look

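Barcodes over the 20% mitochondrial limit entered only the alternative run without that limit, and some of them held Neurog3. At least 2 Neurog3 UMIs were found in 19 of 6110 such barcodes of set 1 (0.311%, exact interval 0.187 to 0.485%), of which 10 were granin-positive. In set 2 they were found in 8 of 3671 (0.218%, 0.0941 to 0.429%), of which 5 were granin-positive.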

How the results depend on the processing

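No paired analysis was possible because the labels list 1 library per treatment and do not map barcodes to libraries or organoid lines. Of 80 values of named genes, 0 changed sign under any alternative run, though 197 of their recomputed values moved beyond their error and 619 did not. Of the alternatives for 46 summary results, 334 kept them within their error, 38 moved them and 4 reversed them. The reversals were all against granin-positive non-members. With the mean of each barcode's own CPM in place of summed UMIs, the G2 and mitosis median was -1.20 and -0.62, where summed UMIs gave 0.76 and 0.69. The granin and processing median was then 0.33 and -0.20, where summed UMIs gave -0.59 and -0.43. Among granin-positive barcodes of at least 5000 UMIs the mitosis median was 0.27 and -0.66. The cause was not tested. This depth limit and the use of granin-positive members alone were chosen after seeing the data.

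Against other kept barcodes that median was -2.32 and -2.44 with each barcode's own CPM, -2.85 and -3.22 for granin-positive members alone, and -2.29 in set 1 without the highest doublet scores. With Neurog3 at 1 or more UMIs, members were 7.48% of set 1, 79.7% of them were granin-positive, lower genes numbered 597 and 708 and the mitosis median was -1.34 and -0.75. With 5 or more UMIs, members were 4.39% and 3.74%. A 10% mitochondrial limit gave 8.06% and 6.01%, and no limit gave 1.91% and 1.69%, with a granin and processing median of 3.43 in set 2. A pseudocount of 10 CPM left 1356 and 1453 higher and 368 and 545 lower genes against other barcodes, 20 higher and 30 lower between sets, and mitosis medians of 0.52 against granin-positive non-members in set 1 and -1.43 against other barcodes in set 2. Depth limits every share of members with a UMI. At 5000 UMIs Insm1 was expected in 93.9% and 96.0% and Neurod2 in 53.3% and 51.0%, and without thinning Insm1 was in 97.9% and 98.8%, Neurod2 in 77.5% and 77.4% and Chgb in 92.3% and 96.4%.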
